A study of Mus musculus with 6 samples.

Results

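The Spata (spermatogenesis associated) and Tex (testis expressed) genes were compared between testes of WT and Trf2-/- mice. Members were the protein-coding genes whose symbol is Spata or Tex followed by a digit, with Tex11, Tex12 and Tex15 left out. Of the 38 symbols that fit this pattern, 3 were left out by name and 1, Spata5l1, because it is annotated as a lincRNA, which left 34 members among the 26743 genes of the table, 19296 of them protein coding. RNA-seq was made from the testis of 3 WT and 3 Trf2-/- mice (genotype TRF2-/- in the labels), all at postnatal day 21. Trf2 is the TBP-related factor that the table lists as Tbpl1. No other allele, treatment or cell type restriction is labelled for either genotype. The study's methods name a 129/SvPas background where they describe a tagged Trf2 line, and the labels give no strain for these mice.

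Spermatogenesis takes germ cells from dividing spermatogonia through meiosis as spermatocytes to haploid round spermatids, which then elongate into sperm. At this age the first wave of germ cells has passed meiosis, and round spermatids are the most advanced abundant stage. The names Spata and Tex were given for expression in testis, not for shared sequence, so the members range from genes of every cell to genes of a single germ cell stage. Spermatid members build the acrosome, the mitochondrial sheath and the head to tail junction of sperm, whereas spermatogonial and meiotic members keep germ cells joined, silence retrotransposons or repair meiotic DNA breaks.

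The members were separated by known role into a spermatid list of 8 genes, a spermatogonial-meiotic list of 7 genes and a broad list of 9 genes used by many cell types. This was done by hand with earlier results of these data known, so a contrast between the lists is a description and not a test. The places of Tex101, which is found beyond meiosis as well, and of Spata18 are debatable. The remaining 10 members were given to no list because their stage was not known well enough. The lists as drawn up named 14 spermatid, 10 spermatogonial-meiotic and 11 broad genes, of which 8, 7 and 9 are members. Of the 34 members, 30 had enough reads to be tested, among them every member on these 3 lists.

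The start regions of 5 members are shown to set the starts of members that fell by at least 2-fold beside those of members that changed less or rose. The first 3 are Spata19 (chr9:27396557-27396806 on the plus strand), Spata21 (chr4:141088095-141088344 on the plus strand) and Tex21 (chr12:76246747-76246996 on the minus strand). Spata17 (chr1:187215447-187215696 on the minus strand) fell by less and Tex19.1 (chr11:121145893-121146142 on the plus strand) rose. Each run gives the 250 bases before the RefSeq start on GRCm38.p6, written 5′ to 3′ along the gene, with every CpG in capitals.
Spata19: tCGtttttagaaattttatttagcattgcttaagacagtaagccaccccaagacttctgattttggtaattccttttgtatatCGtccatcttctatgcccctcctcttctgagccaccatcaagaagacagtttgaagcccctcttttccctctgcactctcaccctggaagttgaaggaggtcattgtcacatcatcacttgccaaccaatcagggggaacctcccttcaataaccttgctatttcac
Spata21: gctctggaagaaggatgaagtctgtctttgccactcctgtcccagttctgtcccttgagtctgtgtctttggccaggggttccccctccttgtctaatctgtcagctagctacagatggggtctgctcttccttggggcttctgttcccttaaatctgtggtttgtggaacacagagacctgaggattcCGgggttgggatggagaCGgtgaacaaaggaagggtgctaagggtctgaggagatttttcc
Tex21: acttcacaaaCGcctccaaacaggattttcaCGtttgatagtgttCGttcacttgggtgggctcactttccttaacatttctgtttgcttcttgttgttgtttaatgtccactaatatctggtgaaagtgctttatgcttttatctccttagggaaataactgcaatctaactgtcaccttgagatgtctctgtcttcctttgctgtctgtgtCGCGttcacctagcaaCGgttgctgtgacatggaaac
Spata17: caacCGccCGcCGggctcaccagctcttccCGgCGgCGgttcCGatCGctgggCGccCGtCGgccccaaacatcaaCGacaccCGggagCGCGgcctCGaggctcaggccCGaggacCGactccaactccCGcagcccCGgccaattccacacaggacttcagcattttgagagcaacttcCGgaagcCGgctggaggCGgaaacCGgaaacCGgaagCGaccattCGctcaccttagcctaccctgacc
Tex19.1: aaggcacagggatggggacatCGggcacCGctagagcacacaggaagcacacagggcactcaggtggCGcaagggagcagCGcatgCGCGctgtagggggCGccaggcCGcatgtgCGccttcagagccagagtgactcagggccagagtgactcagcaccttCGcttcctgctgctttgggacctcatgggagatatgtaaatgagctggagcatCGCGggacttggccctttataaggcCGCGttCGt
Spata19 had 2 CpG in these bases, Spata21 2 and Tex21 6, against 27 in Spata17 and 15 in Tex19.1. These 5 starts are chosen examples, and few CpG were not particular to members that fell by at least 2-fold. In the longer windows used further on, Spata9 had 1 CpG and Tex19.2 had 2, and neither gene fell by 2-fold. There the CpG content is compared across the members with a usable window.

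The libraries held between 21582123 and 29859347 counts on genes in WT and between 15187062 and 24530489 in Trf2-/- testis, the lowest in Trf2-/- mouse 3. Levels are given as CPM, the counts of a gene relative to a library size that was scaled by TMM factors, and a fold change is Trf2-/- over WT. Tbpl1 was at 20.7% of WT in the mutant, below WT in 3 of 3 mice. Sertoli and spermatocyte markers were detected in every mouse, with summed levels of 1248 to 1644 CPM and 3945 to 4135 CPM. Of the 6 elongating spermatid markers, Odf1, Akap4, Oaz3 and Gapdhs had between 19 and 67 counts in each WT mouse, while Prm2 had at most 1 count and Tnp1 at most 4 in any mouse. The numbered mice are separate animals with no stated pairing. Differences were tested with edgeR's quasi-likelihood test, with Benjamini-Hochberg adjustment over 16924 genes, and calls needed an adjusted p below 0.05 together with a change of 2-fold or more.

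Members were down-regulated more often than up-regulated in Trf2-/- testis. Of the 30 members tested, 5 were called lower (Spata19, Spata20, Spata21, Tex21 and Tex22), where 4.3% of all tested genes were called lower. None was called higher, against a background of 0.609%. The same count was 0 at an unadjusted p under 0.05, since the highest log2 fold change was 0.41. Without a fold limit, 17 members fell and 3 rose past the adjusted p, beside 20.2% and 11.2% of all tested genes. The remaining 10 did not pass. The median log2 fold change was -0.27 over the tested members and 0.04 over all tested genes. In 18 members all Trf2-/- mice were below all WT mice, against 26.8% of all tested genes, and in 3 members all were above, against 22.3%. DESeq2's Wald test also called 5 lower and 0 higher. Scaled by library size alone, 15 members fell and 3 rose, while the share of falling genes among all genes past the adjusted p went from 64.4% to 38.7%. In these whole-testis libraries fewer cells of a type and less RNA per cell cannot be told apart.

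**Figure D1:**
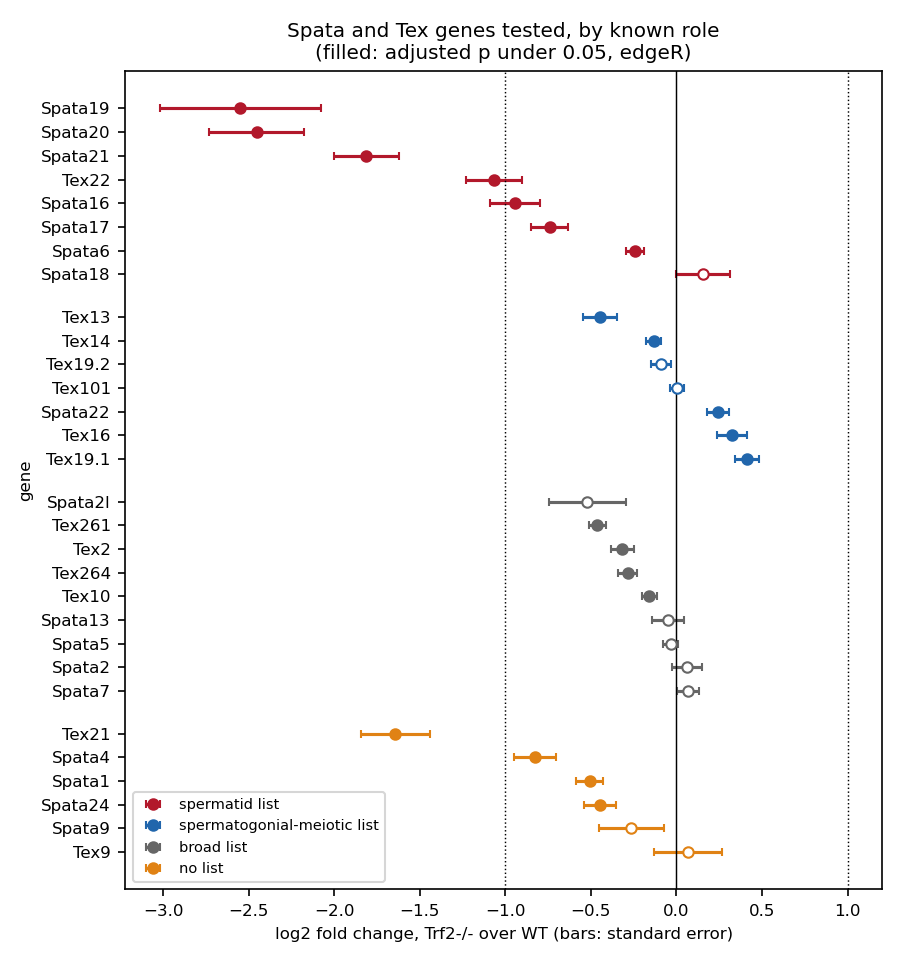
The log2 fold change of Trf2-/- over WT testis is plotted for each of the 30 tested members, with bars for the standard error, filled points for an adjusted p under 0.05 and dotted lines at a 2-fold change, grouped by known role. All but 1 of the spermatid list lie below 0 and reach -2.55, whereas the spermatogonial-meiotic list lies between -0.45 and 0.41.

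Both name groups held genes that fell. Of 17 tested Spata genes 3 were called lower, 9 fell and 1 rose past the adjusted p, with a median log2 fold change of -0.45. Of 13 tested Tex genes 2 were called lower, 8 fell and 2 rose, with a median of -0.16. Over all tested genes 4.3% were called lower, 20.2% fell and 11.2% rose. The role lists had medians of -1.01 for spermatid, 0.005 for spermatogonial-meiotic and -0.16 for broad members, and the 6 tested members of no list had a median of -0.48.

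Genes of the spermatid list were down-regulated in Trf2-/- testis. Of its 8 genes 7 fell past the adjusted p, 4 of them by at least 2-fold, and none rose. Over all tested genes 20.2% fell, 4.3% by at least 2-fold, and 11.2% rose. The log2 fold changes of the list ran from -2.55 to 0.16. Without Spata18 the median was -1.07 in place of -1.01. The list includes proteins of the sperm mitochondria, the acrosome and the head to tail junction.

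Spata19 encodes a mitochondrial protein of sperm (spergen-1) and lies on chromosome 9 of NCBIM37, from 27204406 to 27209295 on the plus strand. It had 35, 48 and 22 counts in WT mice 1 to 3 and 4, 10 and 1 counts in Trf2-/- mice 1 to 3. Every mutant mouse was below every WT mouse, and mutant mouse 3 had the fewest reads. Its level was 1.37 ± 0.413 CPM in WT and 0.217 ± 0.190 CPM in Trf2-/- testis (SD, n = 3 mice each), with a log2 fold change of -2.55 (standard error 0.47, edgeR adjusted p = 0.00391). It was the largest fitted decrease of the 30 tested members and the one with the widest error, since it rested on few reads.

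Spata20, a thioredoxin-domain protein, lies on chromosome 11 from 94340218 to 94347493 on the minus strand. Its counts were 510, 394 and 320 in the WT mice and 81, 94 and 19 in the Trf2-/- mice. At 16.1 ± 1.48 CPM in WT against 2.82 ± 1.46 CPM in the mutant (SD, n = 3 mice each) the genotypes were far apart and did not overlap. This gave a log2 fold change of -2.45 (standard error 0.28, edgeR adjusted p = 0.000577), and mutant mouse 3 stood at 0.332 times the mean of mutant mice 1 and 2.

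Spata21, an EF-hand protein, lies on chromosome 4 from 140644248 to 140668675 on the plus strand. It was found at 6.62, 8.85 and 7.96 CPM in WT testis, against 2.06, 2.74 and 1.77 CPM in the mutants. The lowest WT mouse was above the highest mutant mouse. Its log2 fold change was -1.81 (standard error 0.19, edgeR adjusted p = 0.000476).

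Tex22, also known as Tep22, lies on chromosome 12 from 114312713 to 114327128 on the plus strand. The WT mice were close together at 77.6, 78.4 and 78.5 CPM, while the Trf2-/- mice were spread over 39.5, 46.1 and 25.6 CPM. The spread among the mutants was wider than in WT and all 3 were well below. The log2 fold change was -1.07 (standard error 0.16, edgeR adjusted p = 0.00175). This value is near the 2-fold limit, and Tex22 was no longer called without Trf2-/- mouse 3, where the log2 fold change was -0.86, or with library size alone as the scale, where it was -0.97.

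Spata16, a protein of the acrosome whose loss gives round-headed sperm in humans, was the most abundant gene of the list. It had 292, 270.2 and 279 CPM in WT and 156, 173 and 106 CPM in Trf2-/- mice 1 to 3. The groups did not overlap and mutant mouse 3 was again the lowest. Its log2 fold change of -0.95 (standard error 0.15, edgeR adjusted p = 0.00174) was just under the 2-fold limit. Without Trf2-/- mouse 1 or mouse 2 it was -1.01 or -1.10 and was called.

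Spata17, a protein with calmodulin-binding IQ motifs, had 42.3, 37.4 and 39.2 CPM in WT and 26.2, 25.2 and 19.3 CPM in Trf2-/- mice. It fell with a log2 fold change of -0.74 (standard error 0.11, edgeR adjusted p = 0.00134). Spata6, needed for the junction of sperm head and tail, had 257, 252 and 249.9 CPM in WT and 225, 218 and 197 CPM in the mutants. Both genes were lower in every mutant mouse than in any WT mouse, but Spata6 fell little, by 0.24 on the log2 scale (standard error 0.06, edgeR adjusted p = 0.0104).

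Spata18, which encodes the mitochondrial quality control protein Mieap, was the single gene of the list that did not pass. Its levels were 5.71, 4.60 and 5.37 CPM in WT and 6.82, 5.49 and 5.06 CPM in Trf2-/- testis, and the groups overlapped. The log2 fold change was 0.16 (standard error 0.16, edgeR adjusted p = 0.471).

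**Figure D2:**
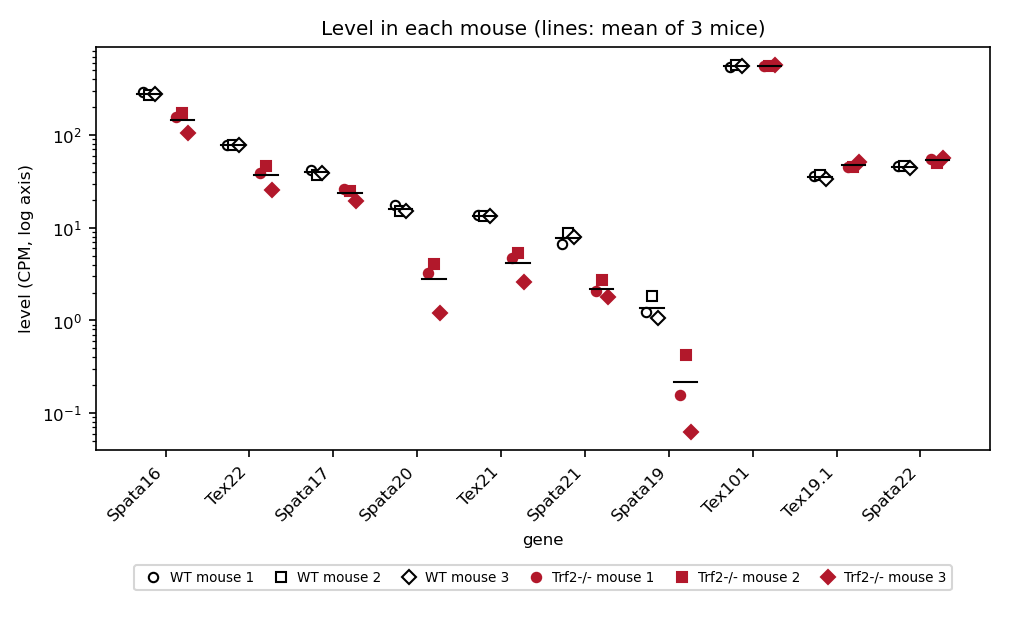
The level of 10 members picked by hand is plotted for each mouse in CPM on a log axis. Open symbols are WT, filled symbols are Trf2-/- and lines are the mean of 3 mice. Among the genes not shown are Tex13 and Tex14, which fell, and Spata18, which did not. For the 7 genes at the left, all of the spermatid list or Tex21, every filled symbol lies under the open ones, whereas Tex101 is at one level in all mice and Tex19.1 and Spata22 are higher in the mutants.

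Spermatogonial and meiotic members did not fall as a group. Of the 7 genes 2 fell, 3 rose and 2 did not pass, none by 2-fold, beside 20.2% lower and 11.2% higher among all tested genes. Their median log2 fold change of 0.005, against 0.04 over all tested genes, was the value of Tex101 itself. Without Tex101 the median was 0.08.

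Tex101, a GPI-anchored glycoprotein of the germ cell surface, was the most abundant member per length, at 528 CPM per kb of transcript in WT. It had 541, 566 and 561 CPM in WT and 557, 553 and 564 CPM in Trf2-/- mice. The genotypes overlapped and differed by less than the spread within WT, with a log2 fold change of 0.005 (standard error 0.04, edgeR adjusted p = 0.938).

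Tex19.1, which restrains retrotransposons in germ cells and is needed for chromosome synapsis, had 36.0, 37.0 and 33.2 CPM in WT and 45.6, 44.9 and 51.2 CPM in Trf2-/- testis. All mutants were above all WT mice. It rose by 1.33-fold, a log2 fold change of 0.41 (standard error 0.07, edgeR adjusted p = 0.00292). Its paralog Tex19.2 had 69.4, 67.3 and 68.7 CPM in WT and 65.7, 67.5 and 59.7 CPM in the mutants, with overlap and a log2 fold change of -0.09 (edgeR adjusted p = 0.269). The paralogs lie near each other on chromosome 11 and share 50 exact stretches of 50 bases, 2.67% of the stretches of Tex19.1, so that few of their reads could be split between them.

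Spata22, a meiotic recombination factor that works with Meiob, had 46.3, 46.2 and 44.1 CPM in WT and 55.1, 49.6 and 57.1 CPM in the mutants. Every mutant was above every WT mouse, and the log2 fold change was 0.24 (standard error 0.06, edgeR adjusted p = 0.0216). Of its exon bases 27.9% are also annotated as exon of Olfr20 on the same strand, so reads there could have been counted on neither or either gene. Tex16, an X-linked gene of early germ cells, had 37.6, 44.4 and 44.9 CPM in WT and 49.9, 51.0 and 58.1 CPM in Trf2-/- testis, again without overlap, with a log2 fold change of 0.33 (standard error 0.09, edgeR adjusted p = 0.0206). Neither gene passed the adjusted p in every edgeR fit with 1 mouse fewer. Without WT mouse 1, 2 or 3 the adjusted p of Spata22 was 0.0579, 0.065 or 0.0736, and without Trf2-/- mouse 1 it was 0.0664. Tex16 had an adjusted p of 0.0715 without WT mouse 1.

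Tex14, a component of the intercellular bridges that join germ cells, and Tex13, an X-linked gene of spermatogonia, were lower. Tex13 had 33.7, 33.5 and 33.6 CPM in WT and 22.2, 23.2 and 29.2 CPM in the mutants. It fell by 0.45 on the log2 scale (standard error 0.10, edgeR adjusted p = 0.00887), and unlike in the spermatid list mutant mouse 3 was the one nearest to WT. Tex14 had 182, 178 and 187 CPM in WT and 167, 165 and 166 CPM in the mutants, which did not overlap. Its change was small, with a log2 fold change of -0.13 (edgeR adjusted p = 0.0383), and it did not pass under 10 of the 13 alternative settings tried. Without WT mouse 1, 2 or 3 its edgeR adjusted p was 0.0912, 0.0764 or 0.123, and without Trf2-/- mouse 1 or 2 it was 0.0757 or 0.0711.

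The 3 genes left out of the member rule, Tex11, Tex12 and Tex15, act in meiosis and were set beside these members as a description. Their levels in Trf2-/- testis were 1.18, 1.16 and 1.18 times those of WT, above WT in every mouse. Of the 3 only Tex12 passed, narrowly, at an edgeR adjusted p of 0.0496.

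The mutant mice differed among themselves in the spermatid members. Trf2-/- mouse 3 was the lowest of the 3 mutants in 8 of the 8 spermatid genes, with a median level of 0.691 times the mean of the other mutants. Over all tested genes it was the lowest in 37.5% and had a median ratio of 1.003. In the spermatogonial-meiotic list it was the lowest in 1 of 7 genes and the highest in 5. The medians of the spermatid list against the WT mean were -0.92, -0.73 and -1.51 on the log2 scale in mutant mice 1, 2 and 3. Without mouse 3 the spermatid median was -0.81 in place of -1.01, and the number of members called lower stayed at 5 with Tex24 in place of Tex22. The same library had the fewest counts.

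**Figure D3:**
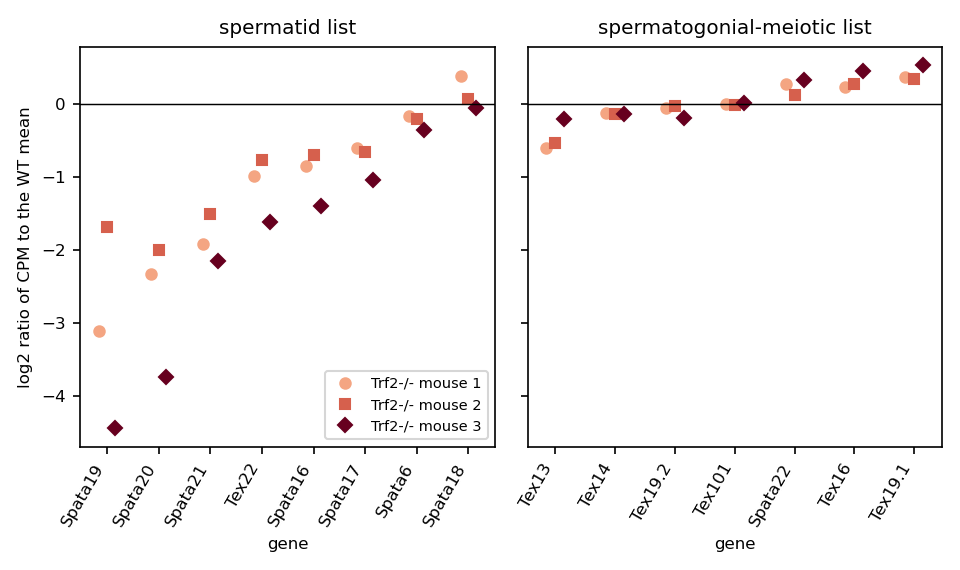
For each gene of the spermatid list (left) and of the spermatogonial-meiotic list (right), the log2 ratio of the CPM of each Trf2-/- mouse to the mean of the WT mice is plotted, with 1 symbol and shade per mouse. The darkest symbol, mouse 3, is the lowest in 8 of 8 genes at the left and the highest in 5 of 7 at the right.

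Markers of spermatids were lower in Trf2-/- testis as well. Of 10 listed round spermatid markers 8 were tested, 7 fell and 5 were called lower, with a median log2 fold change of -1.73. Over all tested genes 20.2% fell, 4.3% were called lower and 11.2% rose. The 5 called markers, which set this median, rested on few reads, with 13 to 46 counts in each WT mouse and 0 to 15 in each mutant. Dpy19l2, Zpbp and Spaca1 had more reads and log2 fold changes of -0.73, -0.73 and -0.22, and Spaca1 did not pass. The summed level of the round spermatid markers was 440 to 454 CPM in WT and 288, 307 and 209 CPM in Trf2-/- mice 1 to 3. Mouse 3 was thus the lowest here too. Most of this sum was Dpy19l2 and Zpbp, at mean WT levels of 243 and 192 CPM, and neither was called. The 4 tested elongating spermatid markers were all called lower, from a summed 6.72 to 8.39 CPM in WT to between 0.948 and 1.63 CPM. Spermatocyte markers had a median of -0.002, and of 9 genes 2 fell and 3 rose, with Ccna1 called lower. Spermatogonial markers had a median of 0.14 and 1 of 8 rose. Their summed level was 245 to 261 CPM in WT and 254, 273 and 334 CPM in mutant mice 1 to 3, and mouse 3 was the highest mutant in 8 of the 8. Their part in the differences of the members was not tested.

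Somatic markers were detected in both genotypes. As background, 11.2% of all tested genes rose, 0.609% were called higher, and in 22.3% all mutants were above all WT mice. All 6 Sertoli markers in the table were above WT in every mutant mouse, 2 of them past the adjusted p. Mouse 3 was the highest mutant in 6 of the 6. Their summed level was 1248 to 1380 CPM in WT and 1463 to 1644 CPM in the mutants, most of it Clu, at a mean of 1094.5 CPM in WT. Of 5 macrophage markers 3 rose and 1, Lyz2, was called higher, and the summed level went from 142 to 165 CPM in WT to 319, 192 and 160 CPM in mutant mice 1 to 3. Of 3 peritubular markers 1 rose, with a summed 260 to 337 CPM in WT and 327 to 379 CPM in the mutants. None of 4 Leydig markers passed, and their sum varied widely, from 98.0 to 283 CPM in WT and from 90.3 to 237 CPM in the mutants. A part of these cells in the values of the broad members was not tested.

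Members used by many cell types changed by less than 2-fold, and more of them fell than rose. Of the 9 broad genes 4 fell and none rose, beside 20.2% and 11.2% of all tested genes. In 5 of the 9 all mutants were below all WT mice, against 26.8% of all tested genes. The log2 fold changes lay between -0.52 and 0.07, with a median of -0.16 against 0.04 over all tested genes. Tex261, related to a cargo receptor of the early secretory pathway, fell by 0.46 on the log2 scale (edgeR adjusted p = 0.000505), from 86.1 to 92.5 CPM in WT to 64.0 to 66.1 CPM in the mutants. Tex2, a lipid transfer protein of the endoplasmic reticulum, fell by 0.32 (edgeR adjusted p = 0.00846). Tex264, a receptor for autophagy of the endoplasmic reticulum, fell by 0.29 (edgeR adjusted p = 0.00466), and Tex10, of a complex that matures ribosomes, by 0.16 (edgeR adjusted p = 0.0206). In each of the 4 all mutants were below all WT mice, but Tex10 did not pass in 6 of 13 alternative settings. Without WT mouse 1, 2 or 3 its edgeR adjusted p was 0.0549, 0.0733 or 0.0683, and without Trf2-/- mouse 1 it was 0.0555.

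The other 5 broad genes did not pass the test. Spata2l, at 1.39 to 1.53 CPM in WT and 0.833 to 1.24 CPM in the mutants, did not overlap between genotypes but had few reads and a log2 fold change of -0.52 with a standard error of 0.23 (edgeR adjusted p = 0.109). Spata13, an exchange factor for small GTPases, Spata5, an AAA ATPase, Spata2, a partner of the deubiquitinase Cyld, and Spata7, known from the photoreceptor cilium, had log2 fold changes of -0.05, -0.03, 0.06 and 0.07. Each of these 4 overlapped between genotypes.

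Among the members of no list, 4 of 6 tested genes fell and none rose, beside 20.2% and 11.2% of all tested genes. Tex21, on chromosome 12 from 77299679 to 77347733 on the minus strand, had 13.7, 13.5 and 13.2 CPM in WT and 4.72, 5.32 and 2.59 CPM in Trf2-/- testis. The WT mice differed by far less than the gap to the mutants, of which mouse 3 was again the lowest. Its log2 fold change was -1.64 (standard error 0.20, edgeR adjusted p = 0.000728), and Tex21 was called in each of the alternative settings.

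Spata4 was the second most abundant member per length, at 467 CPM per kb in WT, behind Tex101 and ahead of Spata16 at 133. It had 507, 496 and 479 CPM in WT and 293, 324 and 218 CPM in the mutants. The groups were far apart, with a log2 fold change of -0.83 (standard error 0.12, edgeR adjusted p = 0.00141). Of its exon bases 11.1% overlap 5330439A09Rik on the opposite strand, and whether the counting used the strand is not given in the sources used here.

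Spata24 has the synonyms TIPT and TIPT2 in RefSeq, for an interaction with the Trf2 protein that gave it that name. It had 118, 112 and 109 CPM in WT and 88.2, 90.9 and 69.1 CPM in Trf2-/- testis. All mutants were lower, and the log2 fold change was -0.45 (standard error 0.09, edgeR adjusted p = 0.00702). Spata1 had 201, 189 and 193 CPM in WT and 142, 149 and 118 CPM in the mutants, and fell by 0.51 on the log2 scale (edgeR adjusted p = 0.0019). Spata9 and Tex9 did not pass, with log2 fold changes of -0.26 and 0.07 and overlapping genotypes. Of the exon bases of Tex9 68.9% belong also to another annotated gene of that name, so its counts may miss reads.

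The 4 untested members had few reads. Tex24 had 22, 18 and 8 counts in WT and 5, 4 and 6 in Trf2-/- mice, and Tex13a had 9, 8 and 2 counts in WT and 1, 0 and 0 in the mutants. Both were lower in each mutant than in any WT mouse once scaled to depth, but narrowly. Tex24 was at 0.379 CPM in Trf2-/- mouse 3 against 0.384 CPM in WT mouse 3. The 2 counts of Tex13a in WT mouse 3 are themselves under the floor of 3 counts. With no filter on low counts the log2 fold change of Tex24 was -1.38 (edgeR adjusted p = 0.0388). Tex13a was at or under the floor of 3 counts in each mutant mouse. Its mean WT level was 1.26 times the highest floor per library of 0.190 CPM. As WT mouse 3 was under that floor, at 0.096 CPM, this sets no bound for every mouse. With no filter its log2 fold change was -3.60 (edgeR adjusted p = 0.0155), on 1 count in all mutants together. Spata3 had 2, 1 and 1 counts in WT and 0 in each mutant, and Tex28 had 7, 4 and 2 counts in WT and 4, 1 and 1 in the mutants. No difference was detectable in these at this depth, with an unfiltered edgeR adjusted p of 0.21 for Spata3 and 0.517 for Tex28.

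Summed over the 34 members, the level was 3628 ± 50.0 CPM in WT and 2919 ± 142 CPM in Trf2-/- testis (SD, n = 3 mice each), 80.5% of WT. The net change of -708.7 CPM came mostly from genes that were not called. Spata4 made up 30.4% of it, Spata16 19.08%, Tex2 12.1% and Spata1 8.15%, whereas Spata19, with the largest fold change, made up 0.163%. By list, the members of no list held 44.3% of the net change, the spermatid list 35.4% and the broad list 20.8%. The rises and falls of the spermatogonial-meiotic list nearly cancelled, at a net 3.71 CPM above WT.

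The start regions of the members differed in CpG content. A window of 300 bases, 250 before and 50 after the RefSeq start, was matched exactly to NCBIM37, and 22 tested members had a window within 200 bases of the 5′ end of the deposited gene. The ratio of observed to expected CpG was 0.138 in Spata19, 0.141 in Spata21 and 0.421 in Tex21, the 3 called members with such a window. In the 19 other members it ran from 0.0685 to 1.12 with a median of 0.694, against a median of 0.384 over all 32851 windows. The ratio of Tex21 was thus above the median of all windows. Low values were not particular to the genes that fell: Tex19.2 had a ratio of 0.13 and Spata9 0.0685, and neither passed the test. Spata17, of the spermatid list, had a ratio of 0.983 and fell. The called genes Tex22 and Spata20 had no window that could be used here.

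**Figure D4:**
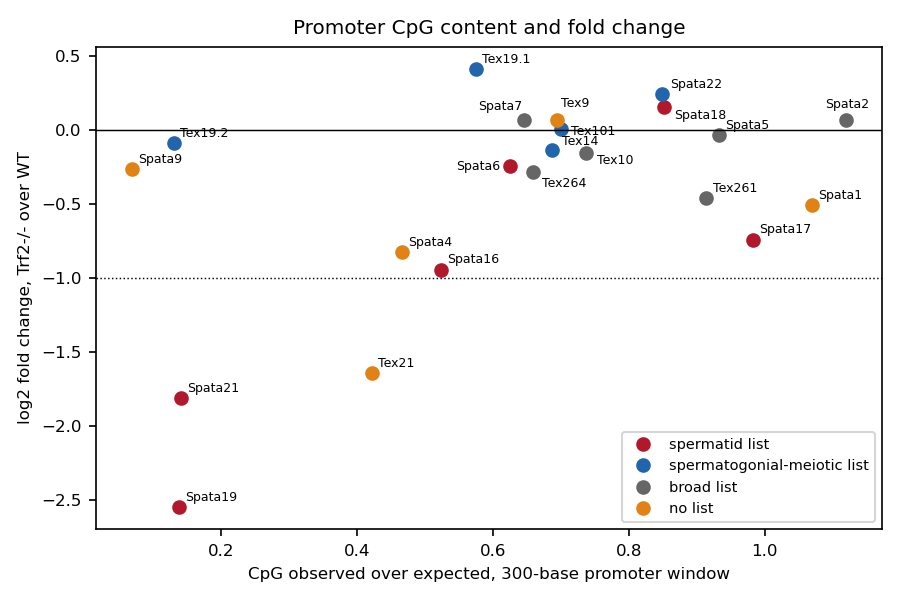
The log2 fold change of 22 tested members is plotted against the observed over expected CpG ratio of their 300-base window, coloured by role, with a dotted line at a 2-fold decrease. The 3 points under that line have ratios of 0.138 to 0.421, and Tex19.2 and Spata9 lie as far to the left near a log2 fold change of 0.

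The letters of 3 promoter motifs were searched in the windows of 28 members, of which 23 had a window within 200 bases of the deposited 5′ end. In the others, among them Spata20 and Tex16, a missing motif does not describe the deposited start. The TATA box letters TATAAA, read along the gene, are present in 8.32% of all windows. Among members they were found in Tex28 only, at position -177 from the start. The CREM site TGACGTCA is present in 1.79% of all windows and among members in Spata7 only, and its shorter form TGACG, on either strand, which every full site also contains, in 20.8%. TGACG was found in Spata1, Spata2, Spata5, Spata6, Spata7, Spata18 and Tex19.2, and in none of the windows of Spata19, Spata21 and Tex21. These are letter matches in short windows and do not show binding.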

How the data were processed

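Testis RNA from 3 WT and 3 Trf2-/- mice was sequenced as stranded total RNA depleted of ribosomal RNA. The submitters' processing notes name CASAVA 1.8.2, TopHat2 2.0.10, Bowtie2 2.1.0, HTSeq 0.5.4p3, DESeq2 1.0.19 and the build mm9 (NCBIM37), and the strand setting and annotation release are not given in the sources used here. The authors deposited raw counts per gene, used here as they stand, beside 12 columns of normalized values that were not used. Counting error alone sets a floor of 3 counts, 0.105 to 0.190 CPM. The chi-square statistic of each same-genotype pair was at least 3.32 per degree of freedom, so all were kept as separate mice. The p-values set the genotype difference against the spread between mice, which was estimated with information from all genes. The labels tie the mice to no litter or batch, so effects of these could not be examined.

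All genes were fitted with edgeR 4.0.16 (R 4.3.3), with TMM factors, filterByExpr, glmQLFit and glmQLFTest on genotype, and Benjamini-Hochberg adjustment over 16924 genes that held 99.9% of counts. The threshold was an adjusted p of 0.05, with calls also needing a 2-fold change, and the biological coefficient of variation was 0.0838. The members and lists were chosen with earlier results of these data known. Values in every mouse are printed for called members, for the spermatid and spermatogonial-meiotic lists and for the 3 members most abundant per kb, and for others chosen after their values were seen (Tex24, Tex13a, Spata1, Spata3, Spata24 and Tex28). Alternatives were DESeq2's size factors, library size alone, the Wald test of DESeq2 1.42.0, no filter, a minimum of 10 counts in each mouse, a replicate block, fits with 1 mouse fewer and an adjusted p of 0.01. The lists without Tex101 or Spata18 were added after seeing the data. RefSeq promoter windows (GRCm38.p6) were matched by symbol to 28 members, and the limit of 200 bases was chosen after the data were seen. Tex22, Tex13, Spata2l, Tex24 and Tex13a had no window, and Spata24 was not used. Exon overlaps and shared stretches of 50 bases were computed on GENCODE vM1.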

Additional observations from a re-analysis of the deposited data

How the results depend on the processing

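Across the alternatives the number of members called lower ran from 4 to 7, against 5. It was 4 with library size alone, which lost Tex22, and with at least 10 counts in every mouse, a filter that removed Spata19, and 7 with no filter, which added Tex13a and Tex24. With 1 mouse left out it ran from 5 to 6. No member was called higher in any setting. The members lower past the adjusted p numbered 14 to 18, and those higher 3, except for 1 at an adjusted p of 0.01 and 1 to 3 with 1 mouse left out. The replicate numbers did not pair the mice (correlations of same-numbered mice -0.10, -0.03 and -0.10), and a replicate block gave 5 called lower, 16 lower and 3 higher, with Tex14 lost. The median of the spermatid list was -1.18 to -0.81 with 1 mouse left out. Library size alone moved the median of the spermatogonial-meiotic list to 0.0997 and of the broad list to -0.0637, and the first was -0.0067 with at least 10 counts and -0.0165 to 0.0166 with 1 mouse left out. Without Tex101, an alternative chosen after seeing the data, it was 0.0763. Signs turned only in genes that did not pass: with library size alone Spata13 (0.0452), Spata5 (0.0601) and Tex19.2 (0.0056), with at least 10 counts Tex101 (-0.0067), and, as ranges with 1 mouse left out, Tex101 (-0.0165 to 0.0166), Tex9 (-0.1051 to 0.2664), Spata13 (-0.1376 to 0.0223) and Spata2 (-0.0217 to 0.1162). The causes of these shifts were not tested. Depth limits Spata19, Spata2l and the 4 untested members, with few counts each.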

Other observations

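Of the members, 10 carry the gene ontology term spermatogenesis in the deposited table, among them Spata16, Spata19, Spata20 and Spata24. Of these 10, 6 fell past the adjusted p, 2 of them by at least 2-fold, 1 rose (Tex19.1) and 3 did not pass. The shares of all tested genes were 20.2% lower, 4.3% lower by at least 2-fold and 11.2% higher. The median log2 fold change of the 10 was -0.36. The called members Spata21, Tex21 and Tex22 do not carry the term.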
